A study of Mus musculus with 6 samples.

Results

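The MST kinases, their close relatives and their partners were examined as 9 named genes in bulk RNA-seq of mouse colon CD4 T cells. The genes were Stk3, Stk4, Stk10, Stk24, Stk25, Stk26, Stk38, Mob1a and Mob1b, found by symbol among 55335 gene rows, and all 9 were among the 11074 genes that passed the filter on low counts. The list was chosen by name, with earlier results of the same comparison known, among them the fold change and call of Stk24 between the gates. The differences of these genes between the groups are therefore given as a description, without a p-value of their own. Stk38 belongs to the NDR kinases and not to the STE20 family, and Mob1a and Mob1b encode adaptor proteins without kinase activity.

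Naive splenic CD4 T cells of TcfGFP mice, which report Tcf7 by GFP, were transferred into Rag1 KO mice, and colitis followed. Rag1 KO hosts make no T or B cells of their own, so the T cells of the colon came from the transferred cells. GFP+ cells (labelled TCF7+ and stem-like) and GFP- cells (labelled TCF7- and effector) were sorted from the colon lamina propria, with 3 libraries for each gate. The labels used here give no age, sex, number or pooling of mice, so the spread between libraries may be partly technical.

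In the Hippo pathway, MST1 (Stk4) and MST2 (Stk3) phosphorylate MOB1 adaptors, which in turn bind and activate LATS and NDR kinases. In T cells MST1 is known less for growth control than for adhesion, migration and survival, and people who lack it have a T cell immunodeficiency. The GCKIII kinases MST3 (Stk24), SOK1 (Stk25) and MST4 (Stk26) bind CCM3 and the MO25 scaffolds, join the STRIPAK phosphatase complex and act on cell polarity, the Golgi and the cytoskeleton. LOK (Stk10) phosphorylates ERM proteins, which tie membrane to cortical actin in lymphocytes.

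Total counts lay between 4309500 and 7462076 per library, and the 8 T cell identity genes examined were at 260.3 CPM or higher in every library. CPM scales counts to the total of the tested genes in each library, adjusted by its TMM factor, and values by library are given in the order of replicates 1, 2 and 3. Tcf7 stood at 121, 141 and 71.3 CPM in GFP-negative libraries and at 237, 183 and 141 CPM in GFP-positive libraries, so the highest GFP-negative and the lowest GFP-positive library were almost level, and its log2 difference of 0.75 ± 0.26 (SE) was not called (adjusted p = 0.367, edgeR's quasi-likelihood test). GFP-positive replicate 3 stood apart. There, 32 markers of other cell types summed to 1.27% of counts, against 0.0305% to 0.078% in the other 5 libraries, with myeloid markers at 0.482% and antigen-presenting genes at 0.655%, while all 7 B cell and endothelial markers were at 0. With 1 such library, a two-sided exact permutation test between gates gave p = 1 (smallest possible 0.1), and the log2 difference of each of the 9 genes is also given without that library.

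The genes of each subfamily are close in sequence, which bears on whether reads can be assigned to 1 member. Over their coding sequences Stk24 was 74.5% identical to Stk25 and 71.9% identical to Stk26, Stk4 was 76.7% identical to Stk3, and Mob1a was 79.7% identical to Mob1b. The sequences below are the 100-base stretches, the length of 1 read of the pair, in which all genes of a set are most alike, from the reference genome GRCm38 with GENCODE M21 models. Capitals mark bases that differ from the first gene of each set. The GCKIII kinases are compared at chr14:121337460-121337559 (minus strand), chr1:93629072-93629171 (minus strand) and chrX:50870349-50870448 (plus strand), each inside 1 coding exon.
Stk24: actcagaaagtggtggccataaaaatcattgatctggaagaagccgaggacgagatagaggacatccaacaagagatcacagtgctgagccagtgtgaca
Stk25: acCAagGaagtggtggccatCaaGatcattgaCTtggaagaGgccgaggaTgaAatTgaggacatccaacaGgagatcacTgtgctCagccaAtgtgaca
Stk26: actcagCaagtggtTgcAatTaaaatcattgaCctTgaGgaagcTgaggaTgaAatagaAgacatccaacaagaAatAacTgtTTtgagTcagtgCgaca

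In this stretch Stk25 differed from Stk24 at 15 positions and Stk26 at 18. In the closest 100-base stretch of each pair taken alone, Stk25 differed from Stk24 at 13 positions and Stk26 at 16. The MST1 and MST2 genes are compared at coding bases that span an intron, within chr2:164083730-164086565 (plus strand) and chr15:35099478-35114557 (minus strand), and the MOB1 genes at chr6:83334077-83334176 and chr5:88749526-88749625 (both plus strand).
Stk4: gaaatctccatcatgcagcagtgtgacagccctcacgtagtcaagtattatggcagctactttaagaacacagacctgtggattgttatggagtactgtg
Stk3: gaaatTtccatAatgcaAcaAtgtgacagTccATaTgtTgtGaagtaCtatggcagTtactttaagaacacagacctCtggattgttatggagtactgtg
Mob1a: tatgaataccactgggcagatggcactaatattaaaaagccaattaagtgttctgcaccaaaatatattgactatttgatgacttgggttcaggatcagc
Mob1b: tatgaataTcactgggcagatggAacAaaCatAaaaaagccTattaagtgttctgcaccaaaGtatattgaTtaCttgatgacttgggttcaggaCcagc

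Stk3 differed from Stk4 at 13 of the 100 positions and Mob1b from Mob1a at 10. No 100-base word of the annotated transcripts of Stk4, Stk3, Mob1a, Mob1b, Stk38, Stk24, Stk26 or Stk10 occurred in a transcript of any other gene. Stk25 was the exception, with 15.1% of its words shared with genes annotated across it. Its exons overlap those of Farp2, on the opposite strand, by 1013 bases. The library method does not keep the strand, so reads there cannot be assigned to 1 gene, and the sources used here do not name the counting method. Farp2 itself had 51 counts over all 6 libraries.

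The GCKIII kinases held the member that differed most between the gates. Stk24, which encodes MST3, was about halved in GFP-positive cells. It stood at 364, 357 and 328 CPM in GFP-negative libraries and at 166, 187 and 179 CPM in GFP-positive libraries. Every GFP-negative library lay above every GFP-positive one, and the lowest GFP-negative value was far from the highest GFP-positive value. The means were 349 ± 19.1 CPM and 177 ± 10.6 CPM (SD, n = 3 each), a ratio of 0.508 and a log2 difference of -0.98 ± 0.13 (SE; GFP-positive minus GFP-negative, as throughout). These values rest on 814 to 1876 counts per library, and the spread within a gate was 5.47% and 5.98% of the mean, where counting alone would give 2.31% to 3.5%. In bulk libraries, fewer cells with Stk24 mRNA and less of it per cell cannot be told apart.

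Stk24 was the only one of the 9 genes called (adjusted p under 0.05, edgeR's quasi-likelihood test). In that test 12 of all 11074 tested genes were called (0.108%), 8 of them lower in GFP-positive cells (0.0722%) and 4 higher (0.0361%), and Stk24 ranked 6 among all genes by unadjusted p. Because the list was made with that result known, nothing is read from the count of 1 in 9. Without GFP-positive replicate 3 the log2 difference of Stk24 was also -0.98. Leaving out each library in turn kept it between -1.02 and -0.94. With the filter applied anew, the call itself was lost when any 1 of GFP-negative replicates 1, 2 and 3 or GFP-positive replicates 1 and 2 was left out, where 0 to 3 genes of all tested were called, and it was kept without GFP-positive replicate 3, where 42 were.

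Cell cycle genes were examined beside Stk24. All 15 of the listed genes had negative log2 differences, with a median of -1.22, and of -1.28 without GFP-positive replicate 3. None was called by edgeR, and 11 had an unadjusted p under 0.05, as did 1138 of all 11074 tested genes. DESeq2, which called 1.81% of all tested genes, called 8 of the 15, edgeR without a filter on low counts (1.78%) called 9 and limma-voom (0.163%) called 0. Their mean log2 CPM was 5.48 to 6.85 in GFP-negative libraries and 4.66 to 5.37 in GFP-positive libraries, again without overlap. Their part in the difference of Stk24 was not tested.

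Stk26, which encodes MST4, had a smaller difference of the same sign. It stood at 103, 109.6 and 116 CPM in GFP-negative libraries and at 88.0, 86.7 and 75.7 CPM in GFP-positive libraries. The gates did not overlap, and the means were 109 ± 6.84 and 83.5 ± 6.73 CPM. The log2 difference of -0.39 ± 0.16 was not called and was -0.32 without GFP-positive replicate 3. Stk24 and Stk26 were the 2 of 9 members without overlap between gates, where 16.0% of all tested genes had none and 8.8% had none and were lower in GFP-positive cells.

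Stk25, which encodes SOK1, was the GCKIII kinase whose gates overlapped. Its CPM values were 43.2, 45.7 and 22.8 in GFP-negative libraries and 52.1, 41.6 and 33.1 in GFP-positive libraries. GFP-negative replicate 3 was the lowest library. The log2 difference of 0.18 ± 0.29 was 0.34 without GFP-positive replicate 3 and -0.07 without GFP-negative replicate 3.

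**Figure D1:**
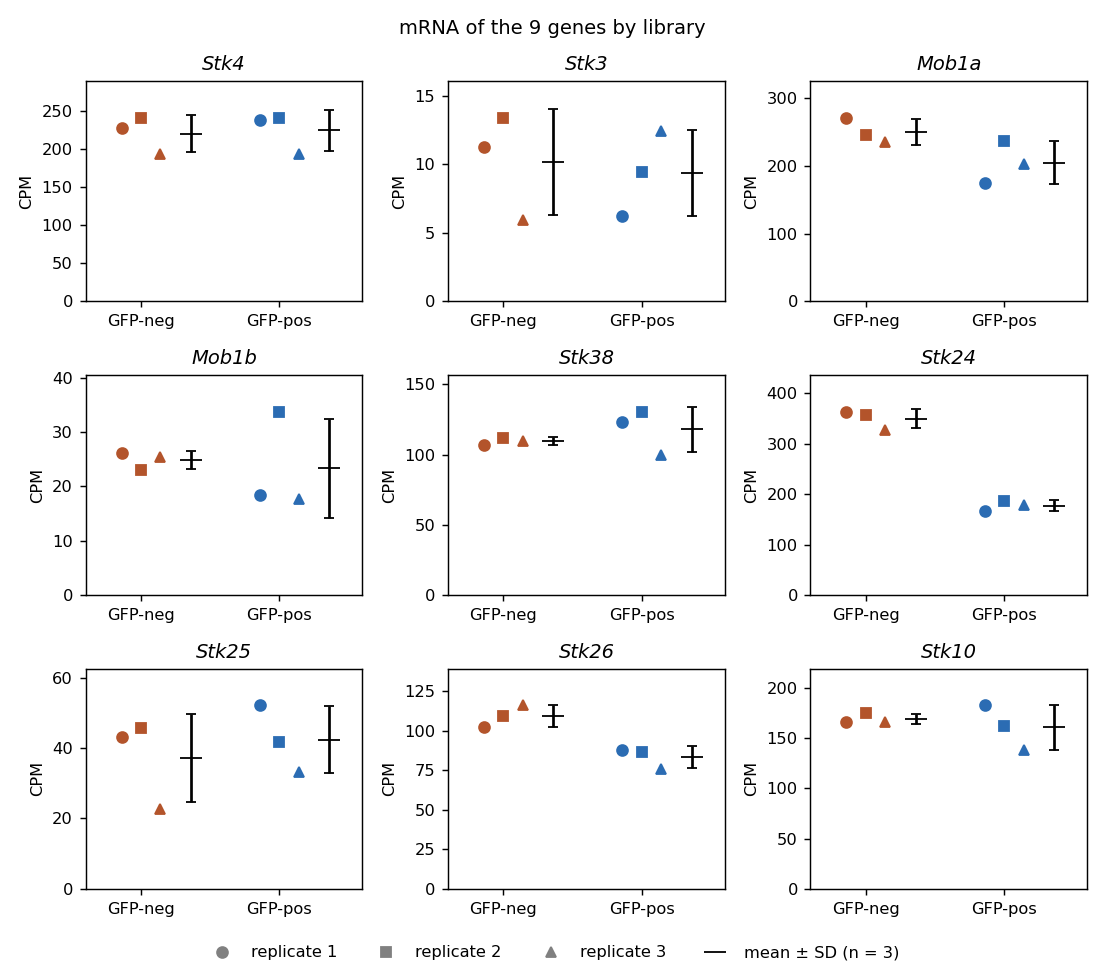
CPM (vertical axis, linear, from 0) of each of the 9 genes in the 3 GFP-negative (orange) and 3 GFP-positive (blue) libraries, with marker shapes for replicate numbers and black bars for mean ± SD. Stk24 shows a wide gap between gates (328 CPM or more against 187 CPM or less), Stk26 a narrow one, and the other 7 genes overlap.

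The make-up of GCKIII mRNA differed accordingly, on the scale of TPM, which adjusts levels for transcript length. Summed over the 3 kinases, the level was 269.5 ± 18.4 TPM in GFP-negative and 157 ± 17.6 TPM in GFP-positive libraries. Stk24 made up 71.6%, 69.9% and 70.2% of that sum in the GFP-negative libraries, against 54.7%, 59.7% and 62.5% in the GFP-positive ones. It was the largest component in all 6 libraries, and its share was lower in each GFP-positive library than in any GFP-negative one. The share of Stk26 was 22.5% ± 2.47 in GFP-negative and 28.1% ± 1.29 in GFP-positive libraries. The share of Stk25 was 6.87% ± 2.06 and 12.9% ± 2.65. Without GFP-positive replicate 3 the GFP-positive shares were 57.2% for Stk24, 28.8% for Stk26 and 14.02% for Stk25. These shares come from the contrast with which the genes were chosen.

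**Figure D2:**
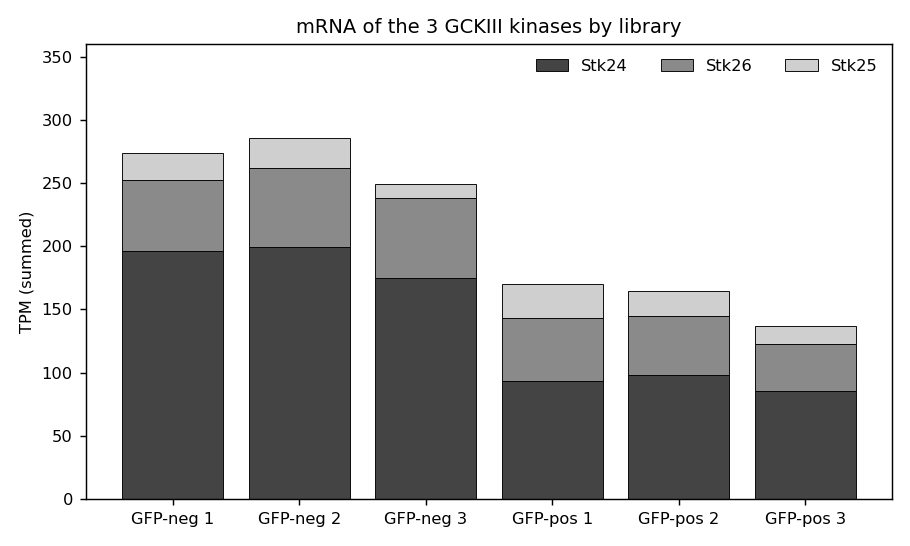
Summed TPM of Stk24 (dark), Stk26 (middle grey) and Stk25 (light) in each of the 6 libraries, as stacked bars from 0. The bars are between 249 and 285 TPM in GFP-negative and between 137 and 169.9 TPM in GFP-positive libraries, and the dark segment accounts for most of the gap.

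Of the kinases at the head of the Hippo cascade, Stk4 had a log2 difference near 0, and that of Stk3 was imprecise. Stk4, which encodes MST1, stood at 228, 241 and 193 CPM in GFP-negative libraries and at 239, 242 and 194 CPM in GFP-positive libraries. The gates overlapped almost completely, and replicate 3 was the lowest of each gate. The log2 difference was 0.03 ± 0.15, and leaving out each library in turn gave -0.06 to 0.13, the latter without GFP-positive replicate 3.

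Stk3, which encodes MST2, was scarce. Its CPM values were 11.2, 13.4 and 5.92 in GFP-negative libraries and 6.23, 9.43 and 12.5 in GFP-positive libraries. They rest on 27 to 87 counts per library, the gates overlapped, and the log2 difference of -0.12 ± 0.48 was -0.38 without GFP-positive replicate 3. That SE was the largest of the 9. Leaving out each library in turn gave -0.39 to 0.12, so the sign of the difference was not settled. Stk4 made up 95.9% ± 1.15 of the pair's summed TPM, the level per transcript length, in GFP-negative and 96.1% ± 1.71 in GFP-positive libraries.

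The MOB1 adaptors, which are substrates of MST1 and MST2 and activators of LATS and NDR kinases, were also dominated by 1 gene. Mob1a stood at 271, 245 and 235 CPM in GFP-negative libraries and at 174, 237 and 203 CPM in GFP-positive libraries. The lowest GFP-negative library was just under the highest GFP-positive library, so the gates overlapped. The log2 difference of -0.29 ± 0.15 was not called and was -0.28 without GFP-positive replicate 3. It stayed negative, at -0.41 to -0.19, with each library left out in turn.

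Mob1b had 26.2, 23.0 and 25.4 CPM in GFP-negative libraries and 18.4, 33.8 and 17.8 CPM in GFP-positive libraries. The GFP-negative libraries lay between the GFP-positive ones, of which replicate 2 was the high one. The log2 difference was -0.10 ± 0.32, at -0.46 without GFP-positive replicate 2, and it turned to 0.07 with GFP-positive replicate 3 left out. Mob1a made up 96.9% ± 0.234 of the pair's summed TPM in GFP-negative and 96.6% ± 0.829 in GFP-positive libraries.

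Stk38, which encodes the NDR1 kinase that MOB1 activates, had 107, 112 and 109.6 CPM in GFP-negative libraries and 123, 131 and 99.8 CPM in GFP-positive libraries. GFP-positive libraries lay on both sides of the GFP-negative ones, whose spread of 2.33% was within that of counting. The log2 difference of 0.10 ± 0.16 was 0.22 without GFP-positive replicate 3.

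Stk10, which encodes LOK, had 166, 175 and 166 CPM in GFP-negative libraries and 183, 162 and 138 CPM in GFP-positive libraries. The gates overlapped, with the highest and the lowest library both GFP-positive. The log2 difference of -0.07 ± 0.15 was 0.04 without GFP-positive replicate 3. GFP-positive replicate 3 was the lowest GFP-positive library for Stk10, Stk38, Stk26, Stk25, Stk4 and Mob1b, and the part of its other-cell RNA in those values was not tested.

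Over the 9 genes, 6 log2 differences were negative and 3 positive, with a median of -0.10, beside a median of 0.02 and 48.4% negative over all tested genes. The ratio of Stk24 to each other member was lower in GFP-positive cells. On the log2 scale the CPM ratio to Stk4 was 0.67 ± 0.10 (SD) in GFP-negative and -0.34 ± 0.21 in GFP-positive libraries. The change in ratio was smallest against Stk26 (-0.59) and largest against Stk25 (-1.20), or -0.66 and -1.37 without GFP-positive replicate 3, and the gates overlapped only for the ratio to the scarce Stk3. Stk24 is part of every ratio, and its difference was known when the list was made. The ratios therefore describe that difference again and add no separate evidence.

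**Figure D3:**
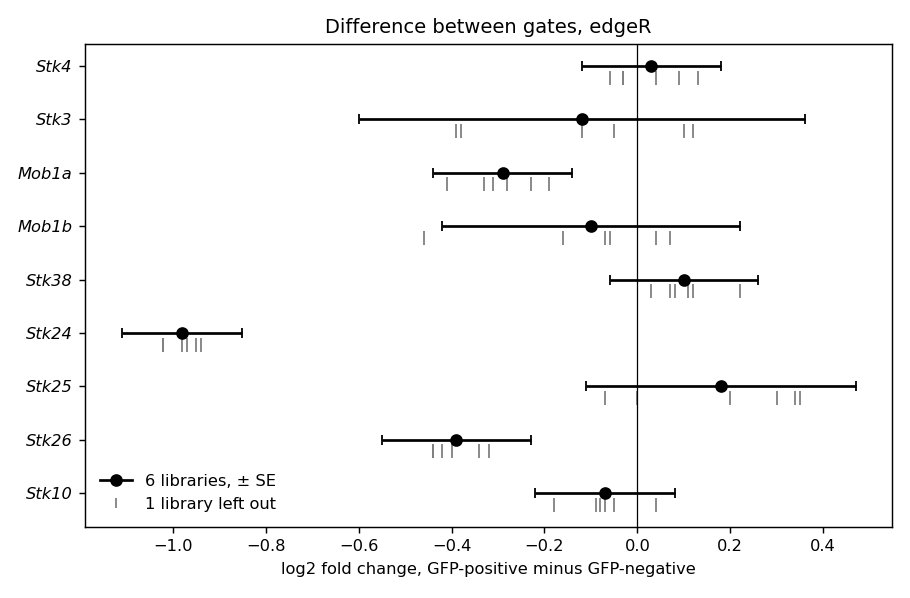
Log2 fold change (horizontal axis, GFP-positive minus GFP-negative) of each gene in edgeR's fit of 6 libraries (black points, bars ± SE), with grey ticks for the fits that leave out 1 library. Stk24 stands at -0.98 with its ticks close by, Stk26 and Mob1a have all ticks below 0, Stk38 has all ticks above 0, and the ticks of Stk4, Stk3, Mob1b, Stk25 and Stk10 reach both signs or 0.

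Levels between genes were compared as TPM, for which the deposited table divides counts by the summed length of all annotated exons of a gene. Over the 6 libraries the order was Stk24 (141 ± 54.4 TPM), Mob1a (136 ± 22.5), Stk4 (109 ± 15.7), Stk10 (91.0 ± 13.0), Stk26 (52.4 ± 10.1), Stk38 (28.1 ± 3.67), Stk25 (19.7 ± 5.79), Mob1b (4.58 ± 1.14) and Stk3 (4.55 ± 1.45 TPM). Stk24 lay at percentile 90.1 of 11069 tested genes with a TPM and Stk3 at percentile 15.6. Neighbours were taken to differ where the mean log2 difference within libraries was larger than its SD. Stk24 and Mob1a did not (each higher in 3 of 6 libraries), nor did Mob1b and Stk3 (also 3 of 6). Mob1a was above Stk4 in 5 of 6 libraries, and each remaining neighbour was in order in all 6. Mob1b and Stk38 have long annotated exons, 15033 and 11560 bases against 4794 to 6114 bases for the other 7, and their TPM depends on how much of that length these T cells transcribe.

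The place of Stk24 in that order depended on the gate. In GFP-negative libraries it came first, at 190.3 ± 13.3 TPM, before Mob1a at 152 ± 11.7 TPM. In GFP-positive libraries its mean came after those of 2 other genes, at 92.4 ± 6.34 TPM against Mob1a at 119 ± 17.6 and Stk4 at 108 ± 19.97 TPM. Its place there varied by library. In replicate 1 it was also below Stk10 (93.0 against 105 TPM), and in replicate 3 it was almost level with Stk4 (85.7 against 84.95 TPM). By mean, the order of Mob1a, Stk4, Stk10, Stk26, Stk38 and Stk25 among themselves was the same in both gates.

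**Figure D4:**
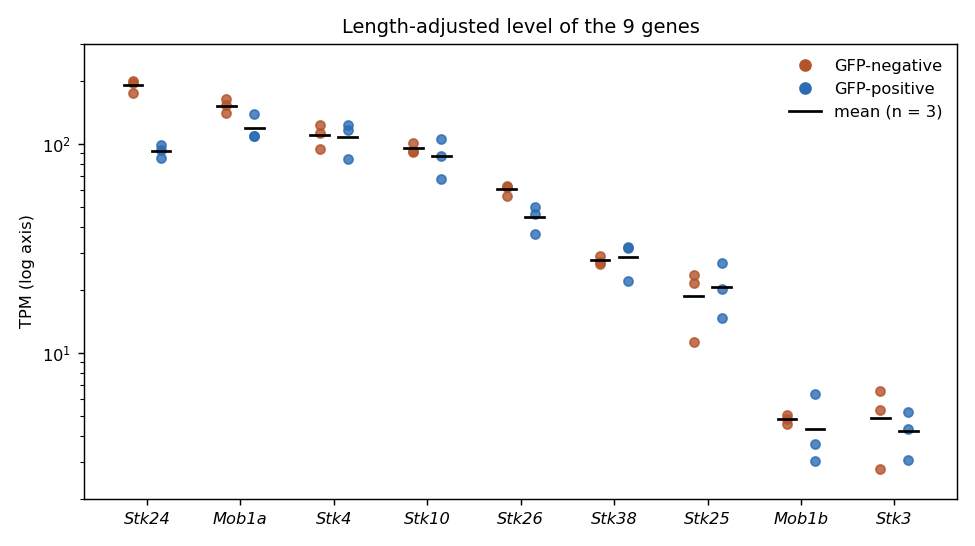
TPM of each gene (vertical axis, log scale) in GFP-negative (orange) and GFP-positive (blue) libraries, ordered by the mean over 6 libraries, with black lines for the mean of each gate (n = 3). The genes range from about 4.55 to 141 TPM, and Stk24 is the gene whose gates stand farthest apart.

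Stk24 lies on the minus strand at chr14:121286343-121380011 (GRCm38, 14 exon blocks, gene ENSMUSG00000063410.8). Stk25 and Stk26 lie elsewhere, at chr1:93619751-93658659 and chrX:50841047-50893097. The 9 genes lie on 9 different chromosomes. No annotated gene overlaps an exon of Stk24.

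Genes were ranked by how closely they followed Stk24 over the 6 libraries. Likeness was the root mean square difference of log2 CPM centred on each gene's mean. It was ranked over 8017 tested genes with a mean of at least 10 CPM, where the median gene was 0.56 from Stk24. Genes with gene-model names (Gm and a number, or ending in Rik) were left out of the ranking. The 5 nearest were Smarcd2 (0.12) and Smarca5 (0.13), both chromatin remodelling genes, Wac (0.12), Arf3 (0.14), a small GTPase of the Golgi, and Fam124b (0.15). Wac, for example, was at 142 ± 8.44 CPM in GFP-negative and 78.7 ± 10.9 CPM in GFP-positive libraries. Among members the nearest was Stk26 (0.32), then Mob1a (0.35), and the farthest was Stk25 (0.69). Of the ranked genes, 4.33% were nearer to Stk24 than Stk26 was, 6.75% nearer than Mob1a and 78.2% nearer than Stk25. With 8017 genes ranked, nothing about the members is read from the 5 nearest genes being closer. These genes were chosen for their pattern, so their differences between gates carry no test.

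Partners and relatives of the 9 genes were described in 7 lists with 99 entries, of which 72 were tested. In edgeR's quasi-likelihood test none of the 72 was called, where 0.108% of all tested genes were. With so low a share, the absence of calls says little about the lists. An unadjusted p under 0.05 was found for 9 of the 72, beside 1138 of all 11074 tested genes. Of the other STE20 kinases 17 were tested, 8 with positive and 9 with negative log2 differences and a median of -0.01. Stk39, which encodes the ion transport regulator SPAK, had the smallest p among them, at 52.7 ± 7.95 against 34.0 ± 7.69 CPM (adjusted p = 0.38, edgeR). Slk, the closest relative of Stk10, had 20.8 ± 2.67 against 28.5 ± 5.48 CPM (adjusted p = 0.648, edgeR).

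No partner of the GCKIII kinases was called. In the list of STRIPAK subunits, CCM proteins and MO25 scaffolds, 19 genes were tested, 10 with positive and 9 with negative differences, and the median was 0.02. Pdcd10, which encodes CCM3, the dimer partner of MST3, SOK1 and MST4, was at 195 CPM in GFP-negative and 205 CPM in GFP-positive libraries, a log2 difference of 0.07 ± 0.14. Cab39, which encodes the scaffold MO25 alpha, was at 193 and 166 CPM (-0.22 ± 0.19), and neither was called. Without GFP-positive replicate 3 these differences were 0.14 for Pdcd10 and -0.46 for Cab39. Golga2 encodes the Golgi protein GM130, an anchor of MST4 and SOK1. It was at 40.1 ± 5.4 and 24.4 ± 4.72 CPM and was not called (adjusted p = 0.352, edgeR). Its log2 difference of -0.72 was -0.57 without GFP-positive replicate 3. Its gates did not overlap, where 16.0% of all tested genes had no overlap. Golga2 was named for its small p within the list, so nothing is read from that.

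Of the 20 listed Hippo genes outside the members only 6 passed the filter on low counts. Wwtr1 (TAZ) and Tead1 had no count in any library, where 3 counts corresponded to 0.402 to 0.696 CPM. Yap1 had 11 counts, all in GFP-positive replicate 3, the library with other-cell RNA, and Tead2, Tead3 and Tead4 had 11, 9 and 1 counts in all. Mean levels were 0.0729 TPM for Yap1 and 0.18 TPM for Tead2 beside 109 TPM for Stk4, so the usual nuclear effectors of the cascade were at or near the limit of detection. Lats1, the kinase downstream of MST1 and MST2, was at 17.7 ± 2.77 and 10.4 ± 6.51 CPM (log2 difference -0.77 ± 0.49, adjusted p = 0.654, edgeR), and its paralogue Lats2 at 4.39 ± 3.43 and 9.07 ± 2.1 CPM (1.05 ± 0.64, adjusted p = 0.644, edgeR). The signs were opposite and neither was called. Without GFP-positive replicate 3 the differences were -1.30 for Lats1 and 0.84 for Lats2. Sav1, the scaffold of MST1 and MST2, had 31 counts in all and was not tested.

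RASSF proteins bind MST kinases through a shared domain, and Rassf5, which encodes RAPL, links MST1 to the integrin LFA-1 in lymphocytes. Rassf5 had the highest level of them, 277 TPM, with 372 ± 51.2 CPM in GFP-negative and 403 ± 75.7 CPM in GFP-positive libraries, and the 4 tested genes had a median log2 difference of 0.07. In the list of NDR2, other MOB and Furry genes 6 were tested, with a median of 0.15. Mob3c, a relative of the MOB1 adaptors, had the smallest p among them, at 14.9 ± 7.72 and 28.8 ± 13.2 CPM (log2 difference 0.95 ± 0.43, adjusted p = 0.482, edgeR). Stk38l, which encodes NDR2, had a log2 difference of 0.21 ± 0.35 and was not called. The 4 ERM genes, substrates of LOK and their linker, had negative log2 differences, with a median of -0.25, or -0.18 without GFP-positive replicate 3. The differences were smallest for Msn, at 953 and 889 CPM (-0.10 ± 0.14), and Rdx, at 130 and 118 CPM (-0.15 ± 0.15). Ezr was at 369 ± 21.8 and 287 ± 53.3 CPM (adjusted p = 0.452, edgeR) and Slc9a3r1 at 201 ± 28.1 and 149.7 ± 16.4 CPM (adjusted p = 0.362, edgeR). Neither was called.

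**Figure D5:**
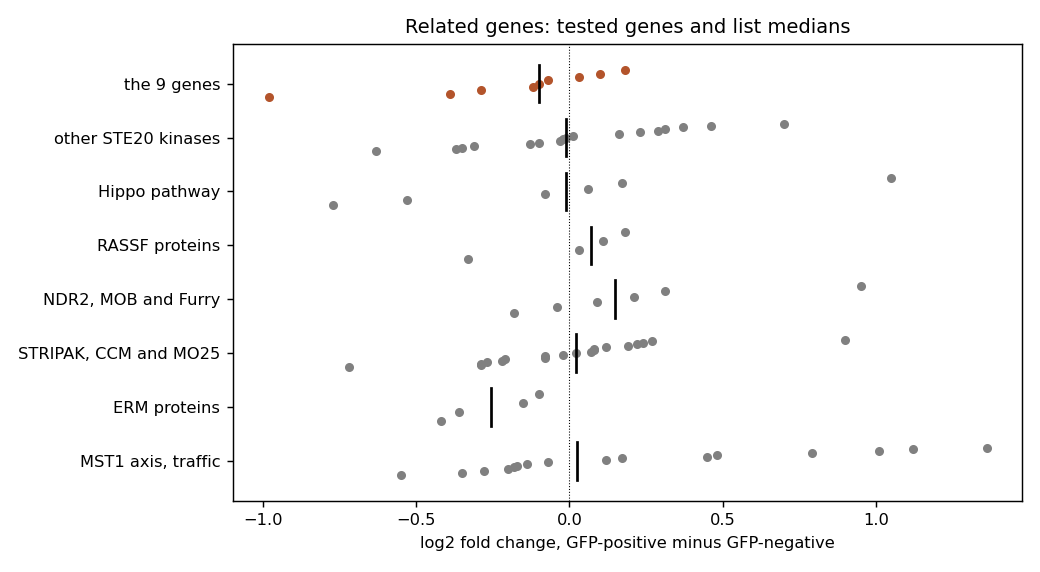
Log2 fold change (horizontal axis, GFP-positive minus GFP-negative) of the 9 genes (orange) and of the tested genes of 7 lists of partners and relatives (grey), 1 point per gene, with black ticks for list medians. List medians lie between -0.25 and 0.15, and Stk24 at -0.98 is the lowest point in the plot.

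The 16 genes of MST1-linked traffic and survival in T cells were all tested, 8 with positive and 8 with negative log2 differences and a median of 0.02. Il7r, the interleukin-7 receptor chain, was at 938, 822 and 1091 CPM in GFP-negative libraries and at 1481, 1673 and 1764 CPM in GFP-positive libraries. S1pr1, the receptor for exit from tissues, was at 102, 119 and 66.0 CPM and at 196, 257 and 170.3 CPM. Rap1b, a GTPase upstream of LFA-1, was at 788, 903 and 758 CPM and at 497, 522 and 652 CPM. None of the 3 overlapped between gates, where 16.0% of all tested genes had no overlap. They were named for their small p within the list, so nothing is read from that count. None was called by edgeR's quasi-likelihood test, at adjusted p = 0.102 for Il7r (log2 difference 0.79 ± 0.15), 0.107 for S1pr1 (1.12 ± 0.22) and 0.209 for Rap1b (-0.55 ± 0.15). Without GFP-positive replicate 3 these differences were 0.74 for Il7r, 1.25 for S1pr1 and -0.67 for Rap1b. Ccr7, the chemokine receptor for entry into lymph nodes, was at 19.8 ± 4.43 and 39.8 ± 16.9 CPM (1.01 ± 0.33, adjusted p = 0.29, edgeR), with overlap between gates and a difference of 0.65 without that library.

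The call of these genes depended on the test. DESeq2 and edgeR without a filter on low counts each called Il7r, S1pr1 and Rap1b, and limma-voom called Il7r alone. S1pr1 was also called by edgeR without GFP-positive replicate 3 (adjusted p = 0.0399). Stk24 was called by each of these tests, and no other member was.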

How the data were processed

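Whole-cell mRNA of 3 GFP-negative and 3 GFP-positive libraries was measured. Reverse transcription used oligo-dT and random primers, followed by PCR, Nextera XT tagging and reads of 100 bases from both ends, per the labels' protocols. No strand and no molecular identifiers were kept, so errors from counts cover counting only. The authors deposited raw counts per gene and a TPM table. The tools named in the submitters' processing notes are STAR 2.7.10b, fastp 0.23.3, deepTools 3.5.1 and SAMtools 1.17, and the build is mm10. The sources used here name no read counter or annotation. The deposited TPM fitted division by the exon length of GENCODE M21 for 9705 of 9705 genes checked (within 1%).

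The members and all gene lists were chosen with earlier results of these data known. Deposited counts were tested with edgeR 4.0.16 under R 4.3.3 (quasi-likelihood F-test, robust), with TMM factors, edgeR's filter at a minimum count of 10, the gate as the only term and Benjamini-Hochberg adjustment over 11074 genes at 0.05. An SE was derived from the log2 fold change and F. Each script for this test was tested on simulated data. Alternatives were library size alone, RLE factors, a filter of 1 CPM in 3 libraries or none, DESeq2 1.42.0, limma-voom (limma 3.58.1), a block for replicate number, limma on log2-transformed TPM with a pseudocount of 1 or 0.1, and leaving out each library. Values of shares, ratios and list genes without GFP-positive replicate 3 were added after seeing the data. Named genes were the 9 members, Tcf7, up to 4 genes of each list with the smallest p, and the 5 genes nearest to Stk24. Pdcd10, Cab39, Sav1 and the Yap1, Wwtr1 and Tead genes were added to these after their values were seen. Pak5 was not matched by symbol. Coding sequences came from M21 models on GRCm38. No protein sequences were used here. Between replicates of the same gate chi-square per degree of freedom was at least 11.4, so no library was a duplicate of another in its gate. Libraries of different gates were not compared in this way.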

Additional observations from a re-analysis of the deposited data

How the results depend on the processing

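The call of Stk24, as 1 member, was kept with RLE factors, library size alone, no filter, 1 CPM in 3 libraries, DESeq2, limma-voom and the replicate block, and 0 members were called by limma on log2(TPM + 1), with or without a filter, or on log2(TPM + 0.1). Its log2 fold change lay between -1.04 and -0.97 in all of these, and the cause of the lost calls was not tested. Over all genes, 12 were called in the report, 19 with library size alone, 373 with no filter, 200 by DESeq2, 1 by limma on log2(TPM + 1) (also 1 unfiltered) and 0 on log2(TPM + 0.1). Leaving out each library gave 0 to 42 calls over all genes, 0 to 1 among members and 0 to 1 in the MST1-linked list. With the genes tested kept as in the full data, an alternative chosen after seeing the data, these were 0 to 50, 0 to 1 and 0 to 1, with 5 genes when GFP-negative replicate 2 and 3 genes when GFP-positive replicate 2 was left out, and Stk24 was then also called without GFP-negative replicate 3. In the MST1-linked list 3 genes were called with no filter, 3 by DESeq2 and 1 by limma-voom, where the report has 0. Mean sums of other-cell markers differed by 0.383 percentage points between gates, with GFP-positive replicate 3 at 1.27%. GFP-positive replicates 1 and 2, at 0.0467% and 0.0305%, lay below every GFP-negative library (0.0561% to 0.078%).

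Same-numbered libraries of both gates deviated together only weakly (r = 0.104, 0.0971 and 0.104), each correlating best with its own number, and no label says that numbers are shared mice or days. With the replicate block 81 genes were called, among them 1 member (Stk24) and 2 genes of the MST1-linked list (S1pr1 and Il7r). It called 9 of the 15 cell cycle genes, as did edgeR with no filter, and the report has 0.

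Some genes that were never called changed sign. Rassf3 did so with library size alone (adjusted p = 0.997, edgeR), limma-voom (0.952), the replicate block (0.968), limma on log2(TPM + 1) (0.962, unfiltered 0.938) and log2(TPM + 0.1) (0.952). With each library left out, edgeR's adjusted p was 0.882 to 0.99 for Rassf3, 0.679 to 0.9997 for Stk38l, 0.567 to 0.988 for Rassf5 and 0.639 to 0.988 for Fry. On the genes of the full data the sign changed at 0.95 to 0.99 for Rassf3 (0.986 with GFP-negative replicate 3 left out and 0.959 with GFP-positive replicate 2 left out), 0.984 for Rassf5 and 0.963 for Fry. The order of Stk24 and Mob1a, and of Mob1b and Stk3, switched when some libraries were left out. Depth limits Stk3 and Mob1b most, at 27 to 147 counts per library.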
